A study of Homo sapiens with 12 samples.

Results

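Endoglin and the TGF-β superfamily genes around it were followed through phorbol ester and calcium ionophore stimulation of MDA-MB-231, a human breast cancer line of mesenchymal character. The cells were WT or lacked part of a regulatory element of the ETS1 promoter. The genes were the 10 rows of the deposited expression table, of 24331 in all, whose gene name was TGFB1, TGFB2, INHBA, TGFBR1, TGFBR2, TGFBR3, ENG, FST, SMAD7 or TGFBI, and each name had 1 row. The 12 libraries came from WT cells and from ΔCRE cells, labelled KO (CRE deleted). In the latter, genome editing had removed part of a core regulatory element of ETS1, the gene of a transcription factor of the ETS family. Cells of each genotype received PMA/Ionomycin for 0, 6 or 24 h, with 2 biological replicates per genotype and time, and 0 h stood for mock treatment. The number of clones behind the ΔCRE libraries is not given in the sources used here, so the deletion and the choice of clone cannot be told apart. The comparison of the genotypes addressed which transcripts differ once this part of the ETS1 element is lost.

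Ligands of the TGF-β superfamily are secreted as dimers, many of them held in a latent form in the matrix. They bind a type II receptor kinase, which activates a type I receptor kinase, and the type I receptor phosphorylates SMAD transcription factors. Co-receptors such as endoglin and betaglycan present ligand to the kinases, while follistatin traps activins outside the cell and SMAD7 blocks the receptors from within. Endoglin is best known from blood vessel lining, and in carcinoma lines the pathway is known for control of proliferation, matrix production and invasion.

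The members that differed most between genotypes were ENG and INHBA. In ΔCRE cells ENG was lower than in WT cells at all 3 times, with 44.8% of the WT mean at 6 h and 53.2% at 24 h. INHBA, which encodes the subunit of activin A, was induced from below 1 FPKM (fragments per kilobase of transcript, scaled to the mapped fragments of the library) in both genotypes, and at 24 h the ΔCRE mean was 2.59 times the WT mean. FST and TGFB2 were also higher in stimulated ΔCRE cells, TGFBR2 and TGFBI were lower, and no difference passed the test for TGFB1, TGFBR1, TGFBR3 and SMAD7.

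The sequences ahead of ENG and INHBA are shown because these members carried the largest differences between genotypes, and ETS factors recognize sites built on GGAA. The ENG window is the 250 bases ahead of the deposited ENG locus in GRCh37, chr9:130617048-130617297 on the minus strand, where the annotation used holds no gene. It was placed there so that no transcribed base of the deposited annotation is printed, a rule not used for INHBA. The locus end lies 110 bases from the nearest annotated ENG start. The INHBA window is the 250 bases ahead of the RefSeq start, matched to GRCh37 at chr7:41742689-41742938 on the minus strand, which lies in an intron of a longer INHBA transcript and within INHBA-AS1 on the other strand. Capitals mark GGAA on either strand, written as TTCC where it lies on the other one.
ENG: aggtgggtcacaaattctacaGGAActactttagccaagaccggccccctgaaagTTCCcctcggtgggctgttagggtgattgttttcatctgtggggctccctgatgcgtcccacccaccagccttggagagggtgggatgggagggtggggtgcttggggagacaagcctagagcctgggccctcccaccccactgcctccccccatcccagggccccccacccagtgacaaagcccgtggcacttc
INHBA: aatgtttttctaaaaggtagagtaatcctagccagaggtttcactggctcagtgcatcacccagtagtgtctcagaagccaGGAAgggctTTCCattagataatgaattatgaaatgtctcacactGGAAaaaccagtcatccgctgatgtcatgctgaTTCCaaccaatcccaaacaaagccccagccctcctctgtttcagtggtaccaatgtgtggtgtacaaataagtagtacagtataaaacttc
The ENG window held 2 such matches and the INHBA window 4. The window ahead of the RefSeq start of ENG, not shown, held 3. Over 35116 RefSeq windows of the same length the median was 3 matches, and 92.7% held at least 1. Neither window held the longer ETS letters CCGGAAGT, the AP-1 letters TGANTCA or the SMAD letters CAGACA, which occurred in 3.42%, 6.57% and 13.6% of windows.

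The library labelled ΔCRE 0 h replicate 1 stood apart from the other 11. Its values summed to 1423335 FPKM against 566255 to 651080, and its Pearson r with any other library on log2(FPKM + 1) was at most 0.890, where replicate pairs without it reached 0.978 to 0.984. The summed FPKM of 6 intestinal epithelium markers, listed with earlier results on this library known, was 8842 in it and at most 0.371 in the others. It was left out of the test, its values are given apart, and ΔCRE 0 h was then represented by replicate 2, assumed to vary like the other groups. In the 11 libraries, 6 markers of mesenchymal-like breast cancer lines summed to 2154 to 3345 FPKM and 8 luminal breast epithelium markers to 38.4 to 114. The 6 endothelium markers, whose tissue is the usual source of endoglin, summed to 0.238 to 2.27 FPKM, and 5 of them were under 1 FPKM in all 11.

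ETS1 itself was lower in ΔCRE cells at each time. It read 24.0 and 23.7 FPKM in unstimulated WT cells, 139 and 145 at 6 h, and 36.2 and 39.7 at 24 h. In ΔCRE cells it read 16.5 FPKM in the 0 h library used, 62.8 and 62.2 at 6 h, and 29.3 and 30.7 at 24 h. The ranges did not overlap at 6 or 24 h, and the differences on log2(FPKM + 1) were -0.51, -1.17 and -0.33 at 0, 6 and 24 h (limma adjusted p = 0.0132, 2.04e-05 and 0.0153). The library set apart read 5.08 FPKM, and with all 12 libraries none of the 3 differences was called (-1.27, -1.17 and -0.33, adjusted p = 0.272, 0.682 and 1). The call at 0 h was also lost without WT 0 h replicate 1 (-0.50), and that at 24 h in the fit of the 24 h libraries alone and without WT 24 h replicate 2 (-0.26), ΔCRE 24 h replicate 1 (-0.30) or ΔCRE 24 h replicate 2 (-0.36).

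All 10 members passed the filter of a mean of at least 1 FPKM over the 11 libraries. In unstimulated WT cells TGFBI was the most abundant at 196 ± 4.54 FPKM (SD, n = 2), followed by TGFB1 at 35.5 ± 0.329, TGFBR2 at 30.5 ± 1.76 and ENG at 23.3 ± 1.32. TGFB2 at 16.2 ± 2.01 and TGFBR1 at 14.0 ± 1.24 overlapped in their replicate values, FST followed at 10.03 ± 0.325, and SMAD7 at 4.35 ± 0.442 and TGFBR3 at 4.07 ± 0.348 overlapped as well. INHBA was lowest at 0.512 ± 0.0366. FPKM is per length, so these levels can be set side by side. In the library set apart TGFB1 read 37.7 FPKM, INHBA 1.48, TGFBR1 7.19, TGFBR2 13.8, TGFBR3 1.68 and SMAD7 2.92. In bulk RNA, fewer cells with a transcript and less of it per cell cannot be told apart.

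**Figure D1:**
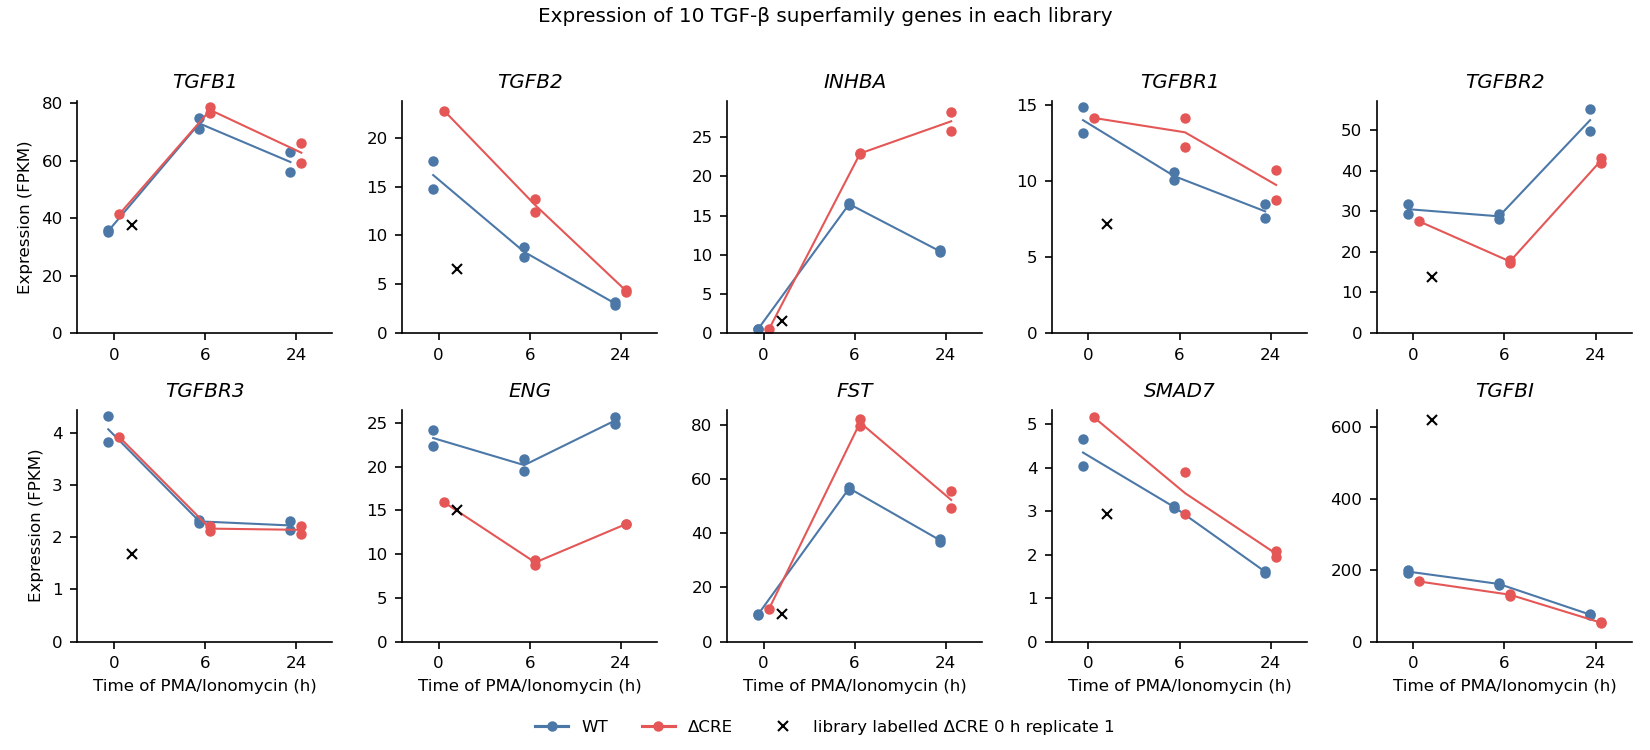
Expression of the 10 members in FPKM (linear axis from 0) against hours of PMA/Ionomycin, 1 panel per gene. Points are libraries, lines join group means of WT (blue) and ΔCRE (red), and the cross is the library labelled ΔCRE 0 h replicate 1. ENG runs lower in ΔCRE than in WT cells throughout, INHBA parts at 6 h and further at 24 h, and the cross lies at 622 FPKM for TGFBI.

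Stimulation moved 9 of the 10 members at 6 h in WT cells, where 44.4% of the 11256 tested features were called. TGFB1, INHBA and FST rose, and TGFB2, TGFBR1, TGFBR3, ENG, SMAD7 and TGFBI fell. The members' median log2 change was -0.24 and that of all features -0.0014. At 24 h against 0 h, again 9 members were called against 54.6% of features. TGFB1, INHBA, FST and TGFBR2 were then higher, and TGFB2, TGFBR1, TGFBR3, SMAD7 and TGFBI lower, with a median of -0.27 against -0.020. Between 6 and 24 h 9 members changed in WT cells and 9 in ΔCRE cells, against 46.8% and 49.6% of features. The members' shares lay above these backgrounds, over genes that were chosen with earlier results of the data known. With all 12 libraries in the fit, 3 members were called in WT cells at 6 h (TGFB1, INHBA and FST) and 5 at 24 h against 0 h.

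Among the ligands, TGFB1 encodes the prototype of the family. It read 35.7 and 35.3 FPKM in unstimulated WT cells, 74.8 and 71.2 at 6 h, and 63.1 and 56.0 at 24 h. In ΔCRE cells it read 41.3 FPKM at 0 h, 78.6 and 76.7 at 6 h, and 66.2 and 59.3 at 24 h. The WT rise at 6 h was 2.06-fold (log2 difference 1.02 ± 0.074 SE, limma adjusted p = 1.53e-05). At 24 h the ranges of the genotypes overlapped, and the ΔCRE minus WT log2 difference was 0.21, 0.089 and 0.075 at 0, 6 and 24 h, none past the threshold (adjusted p = 0.317, 0.520 and 0.617). At 24 h its 95% interval ran from -0.093 to 0.24.

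TGFB2, which encodes a close relative of TGF-β1, ran the other way with time. WT cells had 14.8 and 17.6 FPKM at 0 h, 7.78 and 8.85 at 6 h, and 2.85 and 3.17 at 24 h. ΔCRE cells had 22.8, then 12.5 and 13.8, then 4.24 and 4.38. The WT level at 0 h was thus 5.38 times that at 24 h (log2 difference -2.10 ± 0.099 SE, limma adjusted p = 1.22e-06), and every ΔCRE library used lay above the WT libraries of its time. The library set apart, at 6.55 FPKM, was below both WT libraries of 0 h. Compared with WT, TGFB2 was 1.58-fold higher at 6 h (log2 difference 0.60 ± 0.099, adjusted p = 0.00787) and 1.43-fold higher at 24 h (0.41 ± 0.099, adjusted p = 0.0493). The call at 24 h lay at the threshold and was kept in 3 of 11 fits that left out 1 library, and at 6 h the call was lost without WT 6 h replicate 1 or ΔCRE 6 h replicate 2 (0.52 and 0.53). At 0 h the difference was 0.47 (adjusted p = 0.102). Counting of TGFB2 shared its locus with LOC728463, which read 0.291 to 1.49 FPKM.

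INHBA encodes the activin βA chain, and its induction was the largest among the members. WT cells had 0.487 and 0.538 FPKM at 0 h, 16.6 and 16.3 at 6 h, and 10.6 and 10.3 at 24 h. ΔCRE cells had 0.493 FPKM at 0 h, 22.9 and 23.0 at 6 h, and 28.3 and 25.9 at 24 h. The ΔCRE value at 0 h lay between the WT values, and from 6 h on the genotypes did not overlap and moved in opposite directions. From 6 to 24 h INHBA fell in WT cells by 0.61 on the log2 scale (SE 0.063, limma adjusted p = 0.000134) and rose in ΔCRE cells by 0.23 (SE 0.063, adjusted p = 0.0161). The ΔCRE minus WT difference was -0.018 at 0 h (adjusted p = 0.954), 0.45 ± 0.063 at 6 h (adjusted p = 0.0038) and 1.29 ± 0.063 at 24 h (adjusted p = 2.67e-05). The change from 6 to 24 h differed between the genotypes by 0.84 (SE 0.088, adjusted p = 0.0247), and INHBA was the only member called in that comparison, in which 0.16% of features were called. That call was lost on leaving out WT 6 h replicate 1 or 2, WT 24 h replicate 1 or 2, ΔCRE 6 h replicate 2 or ΔCRE 24 h replicate 1, with values of 0.83, 0.85, 0.86, 0.82, 0.85 and 0.78. The rise in ΔCRE cells from 6 to 24 h was also lost without ΔCRE 6 h replicate 1 (0.22) or 2 (0.23), or without ΔCRE 24 h replicate 1 (0.17). INHBA-AS1 lies on the other strand of the same locus and was listed at 0 to 0.0415 FPKM. Whether the counting used strand is not given in the sources used here, so reads of the pair cannot be told apart.

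Of the receptor kinases, TGFBR1 encodes the type I receptor for TGF-β. It read 13.1 and 14.9 FPKM in unstimulated WT cells, 10.6 and 10.1 at 6 h, and 7.55 and 8.48 at 24 h. In ΔCRE cells it read 14.2 FPKM, then 12.3 and 14.2, then 8.77 and 10.7. The level declined with time in WT cells (log2 difference at 24 h against 0 h -0.74 ± 0.11 SE, limma adjusted p = 0.00066). The ΔCRE libraries were above the WT libraries at 6 and 24 h, but the differences of 0.32 and 0.25 missed the threshold (adjusted p = 0.112 and 0.237), with 95% intervals from 0.072 to 0.58 and from -0.00071 to 0.50.

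TGFBR2 encodes the type II receptor that binds TGF-β. WT cells had 29.3 and 31.8 FPKM at 0 h, 28.2 and 29.3 at 6 h, and 49.8 and 55.1 at 24 h. ΔCRE cells had 27.5 FPKM at 0 h, 17.2 and 18.0 at 6 h, and 41.8 and 43.2 at 24 h. WT cells thus kept their level at 6 h within 0.082 on the log2 scale (adjusted p = 0.350), while the ΔCRE values at 6 h were the lowest of the 11 libraries. Compared with WT, TGFBR2 in ΔCRE cells was at 61.3% at 6 h (log2 difference -0.68 ± 0.067 SE, limma adjusted p = 0.000817) and at 81.0% at 24 h (-0.30 ± 0.067, adjusted p = 0.0382). The 24 h call was kept in 3 of 11 fits that left out 1 library, and at 0 h the difference was -0.14 (adjusted p = 0.485). From 6 to 24 h TGFBR2 rose 1.82-fold in WT cells and 2.41-fold in ΔCRE cells, and these rises differed by 0.38 (SE 0.095), which missed the threshold (adjusted p = 0.342).

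The co-receptors differed from each other. TGFBR3 encodes betaglycan, which presents TGF-β2 to the type II receptor. It read 3.82 and 4.31 FPKM in unstimulated WT cells and 2.13 to 2.33 in the 4 stimulated WT libraries. In ΔCRE cells it read 3.92 FPKM at 0 h and 2.06 to 2.22 under stimulation. The drop at 6 h in WT cells was 0.62 on the log2 scale (-0.62 ± 0.082 SE, limma adjusted p = 0.000472), and the ranges of the genotypes overlapped at 24 h. The ΔCRE minus WT difference was -0.041, -0.062 and -0.038 at 0, 6 and 24 h (adjusted p = 0.900, 0.705 and 0.836), with a 95% interval of -0.25 to 0.12 at 6 h. From 6 to 24 h its small difference changed sign with TPM scaling in both genotypes.

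ENG encodes endoglin, a co-receptor for TGF-β and for bone morphogenetic proteins. WT cells had 24.2 and 22.3 FPKM at 0 h, 20.8 and 19.5 at 6 h, and 25.7 and 24.9 at 24 h. ΔCRE cells had 15.9 FPKM at 0 h, 9.32 and 8.76 at 6 h, and 13.5 and 13.4 at 24 h. Every ΔCRE library used was below every WT library, whatever the time. The library set apart, at 15.1 FPKM, was below them too, but its marker content differed from that of the other libraries. Compared with WT, the log2 difference was -0.52 ± 0.077 SE at 0 h (limma adjusted p = 0.0144), -1.08 ± 0.063 at 6 h (adjusted p = 5.42e-05) and -0.86 ± 0.063 at 24 h (adjusted p = 0.00024). The calls at 6 and 24 h held in all 20 alternatives, with adjusted p of at most 0.004 and 0.0113. The call at 0 h was lost without WT 0 h replicate 1 (-0.46) and with all 12 libraries (-0.56, adjusted p = 0.119, the highest of 18 alternatives that began at 0.00731).

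In WT cells the changes of ENG with time were smaller than its differences between genotypes. It dipped at 6 h by 0.20 on the log2 scale (-0.20 ± 0.063 SE, limma adjusted p = 0.0332), a call that was kept in 6 of 11 fits with 1 library left out, and at 24 h it was within 0.12 of the starting level (adjusted p = 0.148). From 6 to 24 h it rose by 0.31 in WT cells (adjusted p = 0.00401) and by 0.52 in ΔCRE cells (adjusted p = 0.000261). The difference between these rises was 0.21 (SE 0.089, adjusted p = 0.701). The ΔCRE 0 h library was 1.76 times the ΔCRE mean at 6 h, where the WT mean at 0 h was 1.15 times that at 6 h, and no test was fitted to the ΔCRE change from 0 h, which rests on 1 library.

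Of the inhibitors, FST encodes follistatin, the secreted protein that binds activin A, the product of INHBA. WT cells had 9.80 and 10.3 FPKM at 0 h, 57.1 and 56.1 at 6 h, and 38.0 and 36.7 at 24 h. ΔCRE cells had 12.1 FPKM at 0 h, 79.7 and 82.1 at 6 h, and 55.4 and 49.2 at 24 h. All ΔCRE libraries used exceeded the WT libraries of their time, while the library set apart, at 10.1 FPKM, lay between the WT values of 0 h. FST rose 5.64-fold in WT cells by 6 h (log2 difference 2.38 ± 0.065 SE, limma adjusted p = 3.73e-08) and then declined in both genotypes. Compared with WT it was 1.43-fold higher at 6 h (0.51 ± 0.065, adjusted p = 0.00292) and 1.40-fold higher at 24 h (0.47 ± 0.065, adjusted p = 0.00554). At 0 h the difference was 0.25 (adjusted p = 0.196). Unlike the INHBA level, which in ΔCRE cells was highest at 24 h, the FST level was highest at 6 h in both genotypes.

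SMAD7, whose product is the inhibitory SMAD that TGF-β itself induces, read 4.03 and 4.66 FPKM in unstimulated WT cells, 3.13 and 3.06 at 6 h, and 1.63 and 1.58 at 24 h. In ΔCRE cells it read 5.16 FPKM, then 2.93 and 3.90, then 2.09 and 1.95. The fall to 24 h in WT cells was 1.03 on the log2 scale (-1.03 ± 0.11 SE, limma adjusted p = 0.000113). The genotypes overlapped at 6 h but not at 24 h, where the difference of 0.21 missed the threshold (adjusted p = 0.326, 95% interval -0.044 to 0.47).

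TGFBI, a matrix protein gene named for its induction by TGF-β, was the most abundant member in every library used at 0 and 6 h. WT cells had 199 and 193 FPKM at 0 h, 159 and 164 at 6 h, and 77.7 and 73.5 at 24 h. ΔCRE cells had 169 FPKM, then 134 and 129, then 53.8 and 52.1. The level at 0 h in WT cells was 2.59 times that at 24 h (log2 difference -1.36 ± 0.052 SE, limma adjusted p = 4.01e-07), and each ΔCRE library used was below the WT libraries of its time. Compared with WT, TGFBI was at 81.4% at 6 h (-0.30 ± 0.052, adjusted p = 0.0102) and 70.0% at 24 h (-0.51 ± 0.052, adjusted p = 0.00149). The 6 h call was lost without WT 6 h replicate 1 (-0.32), WT 6 h replicate 2 (-0.28) or ΔCRE 6 h replicate 2 (-0.27), and at 0 h the difference was -0.22 (adjusted p = 0.154). The library set apart read 622 FPKM, above all others.

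**Figure D2:**
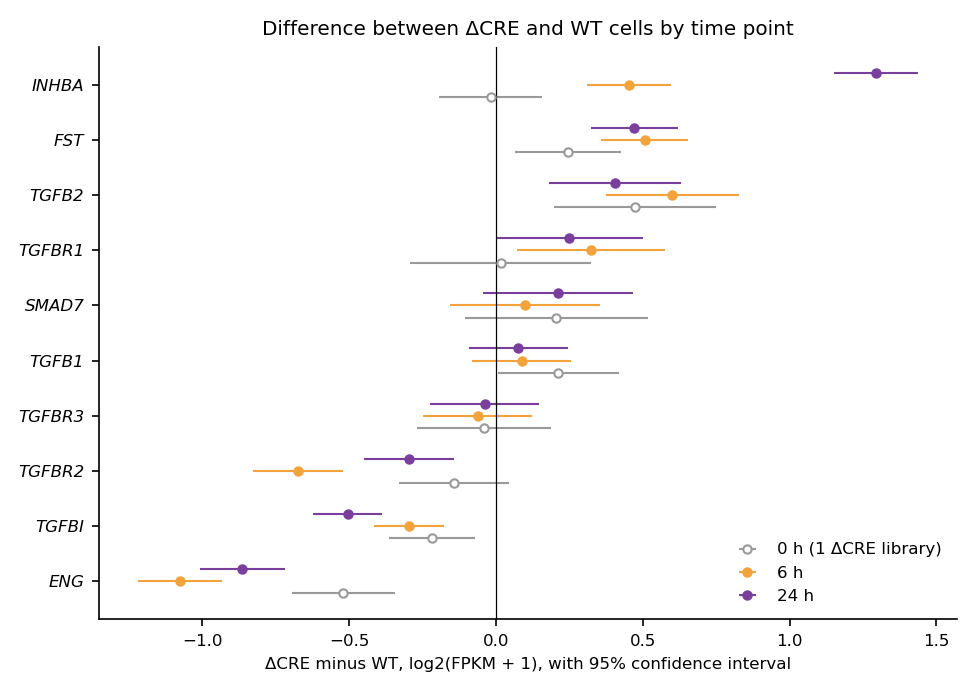
Difference between ΔCRE and WT cells for each member on log2(FPKM + 1), with 95% confidence intervals from the limma fit, at 0 h (open, 1 ΔCRE library), 6 h (orange) and 24 h (purple). INHBA at 24 h (1.29) and ENG at 6 h (-1.08) lie farthest from 0 on either side, and the intervals of TGFB1, TGFBR3 and SMAD7 at 6 and 24 h cross it.

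Counted together, 1 member (ENG) was called between genotypes at 0 h, where 1.69% of features were called. At 6 h 6 members were called, 3 in each direction, against 9.83% of features, and the same 6 at 24 h against 6.33%. The median over the 10 members was -0.00092, 0.094 and 0.14 at the 3 times, and that of all features 0.0057, 0.013 and 0.012. These counts depended on the library set apart. When it entered the fit, the differences at 6 and 24 h kept their size but the pooled spread grew, and ENG alone was called (adjusted p = 0.004 at 6 h and 0.0113 at 24 h). In that fit INHBA at 24 h had an adjusted p of 0.115, FST 0.218 at 6 h and 0.392 at 24 h, TGFBR2 0.843 at 6 h, and 20 and 17 features were called in all at 6 and 24 h.

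Genes near ENG on chromosome 9 were also lower in ΔCRE cells, by less. Of 105 other tested features within 5 Mb of ENG, 93 had a negative log2 difference at 0 h, 95 at 6 h and 99 at 24 h, with medians of -0.20, -0.24 and -0.24. At 6 h 26 were called lower and 1 higher, and at 24 h 25 and 2. None was lower than ENG at 6 h, and at 24 h MIR3911, a microRNA locus named after its value was seen, was lower but not called (adjusted p = 0.288). Around TGFB2, 22 features had medians of 0.27 at 6 h and 0.23 at 24 h, with 7 and 5 called higher and none called lower. The medians around the other 8 members lay between -0.10 and 0.13 at the 3 times, with that around INHBA at 0.0201 and 0.0028 at 6 and 24 h. The part that the neighbourhood had in the ENG and TGFB2 differences was not tested.

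**Figure D3:**
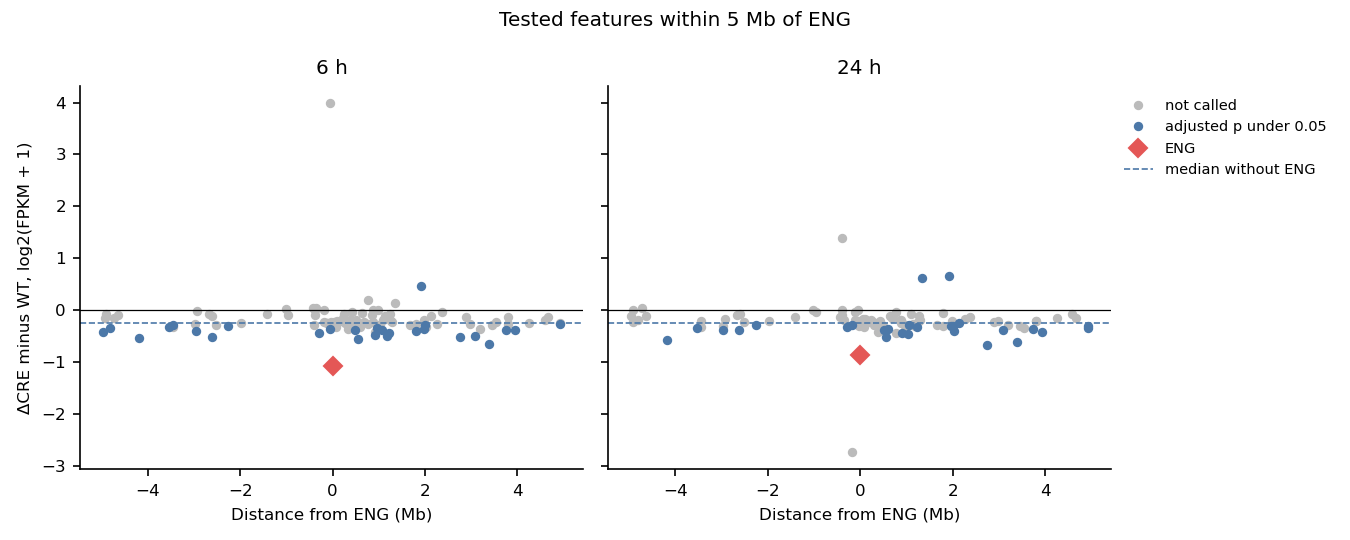
ΔCRE minus WT difference on log2(FPKM + 1) against distance from ENG in Mb, at 6 h and 24 h, for ENG (diamond) and 105 other tested features (blue, adjusted p under 0.05; grey, not called). The dashed line is the median without ENG, -0.24 at both times, and ENG lies at -1.08 and -0.86. The outlying grey points are microRNA or small RNA loci.

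The features whose profile over the 11 libraries was most like that of ENG were GRK5 (Pearson r = 0.973), ARHGDIB (0.971), NAV1 (0.964), C10orf76 (0.960) and FAM129B (0.959). GRK5 encodes a kinase of G protein-coupled receptors, and its ΔCRE minus WT differences were -0.97 at 6 h and -0.85 at 24 h. FAM129B lies 0.293 Mb from ENG. For INHBA they were SEMA7A (0.993), TOMM34 (0.991), IFNLR1 (0.986), TMEM208 (0.985) and the locus of LOC284454 and MIR24-2 (0.985). Their ΔCRE minus WT differences at 24 h were 0.16 to 0.37, against 1.29 for INHBA itself. The points share libraries and groups, so these coefficients are descriptions.

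Other genes of the pathway were read from 6 lists with 80 genes, of which 51 passed the filter. Between genotypes 8 were called at 0 h, 5 of them higher, then 14 at 6 h, 7 of them higher, and 15 at 24 h, 10 of them higher. Of all tested features 1.69%, 9.83% and 6.33% were called at these times, and 38.9%, 36.8% and 37.2% of those called were higher. The medians of the pathway genes were 0.011, 0.038 and 0.048, against 0.0057, 0.013 and 0.012 over all features. With all 12 libraries 1, 1 and 2 were called, and the fit of the 24 h libraries alone called 9. Leaving out 1 library gave 3 to 5, 7 to 14 and 9 to 15. At 0 h the count fell to 3 without WT 0 h replicate 1, to 4 without WT 0 h replicate 2 or either WT 6 h library and to 5 without any one of the other 6 libraries. It fell to 7, 8 and 8 at 6 h without WT 6 h replicate 1, WT 6 h replicate 2 or ΔCRE 6 h replicate 2, and to 9 at 24 h without any one of the 24 h libraries.

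Among extracellular antagonists and latency proteins, 8 of 16 were tested, 1 of them was called higher and 4 lower at 6 h, likewise at 24 h. CHRDL1, a secreted antagonist of bone morphogenetic proteins, read 2.25 to 3.11 FPKM in the WT libraries and 0 to 0.0267 in the ΔCRE libraries used (limma adjusted p = 2e-05 at 6 h). It read 0 in the library set apart. LTBP1, which anchors latent TGF-β in the matrix, differed by -0.56 at 6 h (adjusted p = 0.000737) and -0.50 at 24 h (adjusted p = 0.00196). LTBP4, of the same family, differed by -0.53 at 6 h (adjusted p = 0.00454), a call lost without WT 6 h replicate 1 (-0.47). THBS1, an activator of latent TGF-β, differed by -0.35 at 0 h and -0.51 at 24 h (adjusted p = 0.0406 and 0.00158). It read 10.6 FPKM in the library set apart, and with all 12 libraries the difference at 0 h was -1.80 (adjusted p = 0.272). FSTL3, a relative of follistatin that also binds activin, was higher by 0.59 at 0 h and 0.53 at 6 h (adjusted p = 0.0353 and 0.00734). The FSTL3 call at 6 h was lost without WT 6 h replicate 1 (0.56), WT 6 h replicate 2 (0.50) or ΔCRE 6 h replicate 2 (0.51). At 0 h LTBP1 differed by -0.64 (adjusted p = 0.00247).

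Of the 17 SMAD target genes 15 were tested, of which 4 rose above and 1 fell below WT at 6 h, while at 24 h all 7 called ones were higher. The median over the 15 was 0.24 at 24 h. Uncalled targets at 24 h, named after their values were seen, included ID1 (mean 47.6 FPKM in ΔCRE and 47.8 in WT cells), CTGF (89.5 and 89.4) and CDKN1A (46.9 and 48.0). IL11, a cytokine gene, was higher by 0.97 at 24 h (SE 0.064, limma adjusted p = 0.000163), with 180 and 164 FPKM in ΔCRE against 90.5 and 84.1 in WT cells. SNAI2, which encodes a transcription factor of epithelial-mesenchymal transition, was higher by 0.59, 0.68 and 0.60 at the 3 times (adjusted p = 0.0495, 0.00387 and 0.00912). The 6 to 24 h change differed between genotypes for 2 target genes, by 0.71 for the matrix gene FN1 and 0.66 for IL11 (adjusted p = 0.0468 for both). Neither was called with eBayes without trend, with no filter or with all 12 libraries, and with 1 library left out they were called in 2 and 1 of 11 fits. FN1 also lost its call with quantile normalization (0.66, limma adjusted p = 0.0747) and with TPM (0.69, adjusted p = 0.0970). Over 19 alternatives FN1 was called in 5 and IL11 in 6.

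Among the remaining lists, 1 of 5 tested ligands was called at 0 h, 2 at 6 h and 1 at 24 h. GDF15, a stress-induced family member, was higher by 0.70, 0.85 and 0.83 at 0, 6 and 24 h (limma adjusted p = 0.0289, 0.0017 and 0.00261). It read 111 FPKM in the library set apart against 3.53 to 30.3 in the other 11. BMP4, which encodes a bone morphogenetic protein and is named after its value was seen, was lower at 6 h, with 2.87 and 3.11 FPKM in ΔCRE against 4.51 and 4.94 in WT cells (log2 difference -0.52, adjusted p = 0.00454, and 0.451 with all 12 libraries). Of the calls at 0 h, those of GDF15, FSTL3, SNAI2 and THBS1 were kept in 5, 2, 2 and 2 of 10 fits that left out 1 library. Of 8 tested receptors none was called at 0 or 6 h and 1 was lower at 24 h. Of 6 SMAD proteins 1 was lower at 6 h, and of 10 intracellular inhibitors 1 was higher at 6 h and 1 at 24 h. The latter was PMEPA1, which sequesters SMADs, with a difference of 0.75 (adjusted p = 0.00131).

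**Figure D4:**
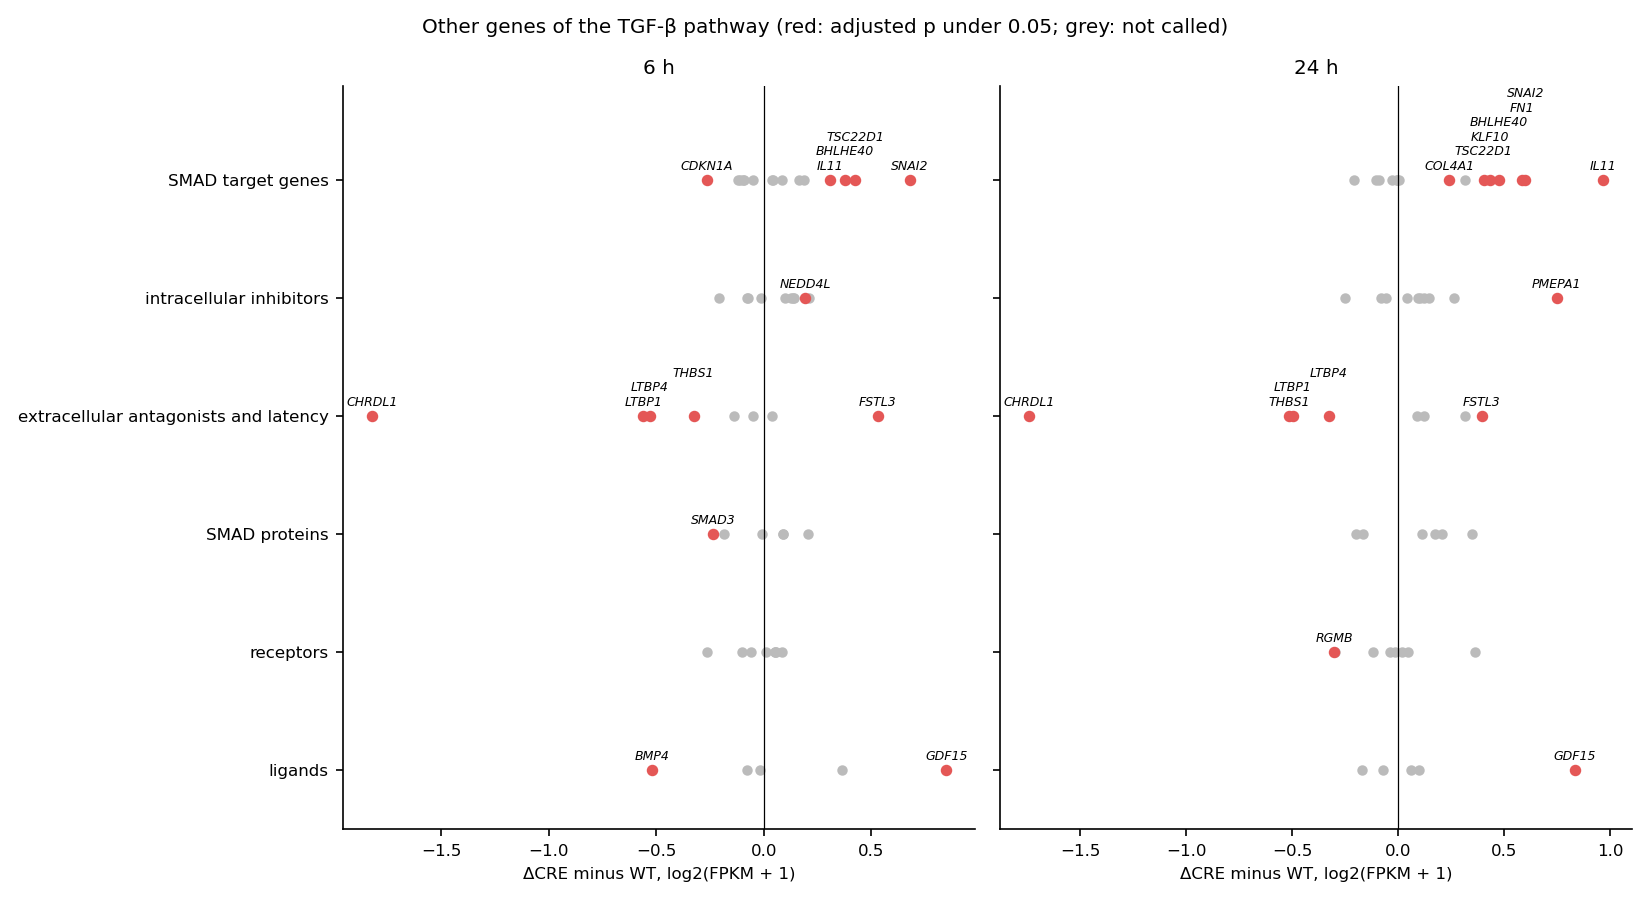
ΔCRE minus WT difference on log2(FPKM + 1) for the tested genes of the 6 pathway lists, 1 row per list, at 6 h and 24 h. Red points passed an adjusted p of 0.05 and are named, grey points did not. At 24 h all 7 red SMAD target genes lie to the right of 0, and CHRDL1 lies far left at both times.

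Under stimulation of WT cells 33 of the 51 pathway genes were called at 6 h and 40 at 24 h, against 44.4% and 54.6% of all tested features. After 6 h 15 genes had risen and 18 had fallen, and after 24 h 15 had risen and 25 had fallen. The cell cycle inhibitor gene CDKN1A (3.26), JUNB (2.61), a subunit of AP-1, and GDF15 (1.81) had the largest rises on the log2 scale at 6 h. SMAD6 (-2.15), which encodes an inhibitory SMAD, ID2 (-2.10), a target of bone morphogenetic protein signalling, and SNAI2 (-1.67) had the largest drops. At 24 h the same extremes were JUNB (2.36), FN1 (1.93) and CDKN1A (1.87) against ID2 (-2.10), SNAI2 (-1.97) and SMAD6 (-1.93). With all 12 libraries in the fit, 13 pathway genes were called at 6 h and 14 at 24 h.

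From 6 to 24 h 10 of these genes rose and 20 fell in WT cells, and 11 rose and 21 fell in ΔCRE cells, against 46.8% and 49.6% of all features called in these comparisons. IL11 (-2.19), the collagen gene COL4A1 (-1.93) and CDKN1A (-1.38) fell most in WT cells, and COL4A1 (-1.73), TAGLN (-1.61) and IL11 (-1.53) in ΔCRE cells. LTBP1 (1.31), LTBP2 (1.28) and BMP4 (1.12) rose most in WT cells, and BMP4 (1.74), LTBP2 (1.64) and FN1 (1.39) in ΔCRE cells. All of these passed an adjusted p of 0.05 in limma, and with all 12 libraries those of LTBP1 and CDKN1A in WT cells and of TAGLN in ΔCRE cells did not (adjusted p = 0.0558, 0.0571 and 0.336). In that fit the rise of GDF15 at 6 h in WT cells was not called either (adjusted p = 0.381). It called 7 pathway genes from 6 to 24 h in WT cells and 10 in ΔCRE cells.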

How the data were processed

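RNA of WT and ΔCRE MDA-MB-231 cells was sequenced as stranded mRNA libraries, with 1 column per library. The authors mapped the reads to hg19 with TopHat and deposited FPKM values from Cufflinks, whose annotation and scaling between libraries are not given in the sources used here. The file has no counts, so absolute depth is unknown. The most frequent ratio of low values between libraries put relative depth at 61.3% to 100% of the deepest library. The ΔCRE 6 h libraries were lowest at 61.3% and 69.0%, against 87.9% and 88.8% for WT 6 h. In these ΔCRE libraries 20 of 38 and 16 of 31 compared low features had that ratio, so the estimate is rough. The part of depth in the 6 h differences was not tested.

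Samples were grouped by the genotype, time and replicate of their labels. Values were taken as log2(FPKM + 1), a scale that understates changes of low genes. A model of 6 groups was fitted with limma 3.58.1 (lmFit, eBayes with trend) in R 4.3.3 to 11256 features with a mean of at least 1 FPKM over 11 libraries. The library labelled ΔCRE 0 h replicate 1 was left out, because earlier work on these data had found it apart. Features were called at a Benjamini-Hochberg adjusted p under 0.05 over all tested features, and the fit was tested on simulated data. The count-based method of the study needs alignments and was not run.

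The members, the pathway and marker lists and the tests were chosen with earlier results of these data known, and 1 gene of the pathway lists is not reported here. The named genes were the members, ETS1, the 3 called pathway genes with the largest change in each direction per comparison, and the 5 features most correlated with ENG and with INHBA. Neighbours are tested features whose midpoints lie within 5 Mb. Motifs were searched on both strands in windows of 250 bases from RefSeq promoter sequences and GRCh37, with the GENCODE annotation lifted to that build. The study describes the 2 replicates of a group as biological. The p-values set a difference against the spread between replicates, pooled over the groups, to which ΔCRE 0 h with 1 library added none.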

Additional observations from a re-analysis of the deposited data

Results flagged for a closer look

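INHBA was singled out by the test of the difference between genotypes. Its change from 6 to 24 h on log2(FPKM + 1) was 0.84 higher in ΔCRE than in WT cells (SE 0.088, limma adjusted p = 0.0247), falling in WT and rising in ΔCRE cells. Over 19 alternatives the value ranged from 0.78 to 0.90, and 12 kept the call.

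TGFBI was singled out in the library that the comparisons left out. Replicate 1 of ΔCRE at 0 h read 622 FPKM, where the highest of the other 11 libraries, WT 0 h replicate 1, read 199 FPKM and ΔCRE 0 h replicate 2 read 169. In the same library 6 fibroblast markers summed to 70.3 FPKM against 1.48 to 3.25 in the others. The 8 luminal breast epithelium markers summed to 3087 FPKM against 38.4 to 114. Largest among the latter were KRT19 (1848 FPKM) and EPCAM (1139), followed by CDH1 (52.3) and ERBB3 (44.5). ESR1 (0) and PGR (0.0128) were near 0, and GATA3 (2.38) and FOXA1 (1.24) lay within the range of the other libraries. The 6 intestinal epithelium markers, listed with earlier results on this library known, summed to 8842 FPKM, against at most 0.371. The part of these sets in the TGFBI level was not tested.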

How the results depend on the processing

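ENG at 6 and 24 h was called under all 20 alternatives, and INHBA and FST at these times under all but the fit with all 12 libraries. That fit called 17, 20 and 17 features between genotypes at 0, 6 and 24 h, with 0, 1 and 1 members. In WT cells it called 857, 1221 and 582 features (6 h against 0 h, 24 h against 0 h, 24 h against 6 h) with 3, 5 and 1 members, in ΔCRE cells 845 features with 3 members, and 0 features and 0 members for the difference of the changes. At 0 h it turned the sign of TGFB2 (-0.35), INHBA (0.35), TGFBR1 (-0.43), SMAD7 (-0.12) and TGFBI (0.72), which follows from the added library. In 74 member values it lost 36 calls.

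Same-numbered libraries deviated together weakly (r = 0.111, 0.0999 and 0.107 at 0, 6 and 24 h), and no label names a shared source, so the numbers were not taken to pair the samples. Whether they mark a shared batch was not tested. A replicate block raised the features called between genotypes to 655, 1805 and 1407, called 2 members at 0 h (ENG and TGFB2) and TGFBR1 at 6 h, and turned TGFBR1 at 0 h (-0.055). Quantile normalization called 2 members at 0 h and 11 features for the difference of the changes, and eBayes without trend called 8 of the latter. Separate fits called 717 features at 6 h and 324 at 24 h. TPM turned TGFBR3 from 6 to 24 h (0.053 in WT and 0.065 in ΔCRE cells). TPM moved the median feature of WT 6 h against 0 h by -0.12, and the share of called features that were higher from 52.5% to 35.0% there, from 43.7% to 64.3% for WT 24 h against 6 h, from 44.6% to 60.7% for ΔCRE 24 h against 6 h and from 37.2% to 24.7% between genotypes at 24 h. TGFB2 and TGFBR2 at 24 h lost their calls with no filter, with TPM, without trend and in the separate fit. A pseudocount of 0.1 changed no member call, and a minimum of 5 FPKM changed no call among the 60 member values it could test, with TGFBR3 and SMAD7 falling below it.

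Leaving out 1 library gave 106 to 159, 321 to 1097 and 165 to 717 features between genotypes, with 0 to 1, 4 to 6 and 4 to 6 members. The lowest counts came without WT 0 h replicate 1, WT 6 h replicate 1 and WT 24 h replicate 1. It gave 3 to 21 features and 0 to 1 members for the difference of the changes, and 6 to 9, 9, 7 to 9 and 7 to 9 members for the changes with time (3492 to 4990, 4667 to 6148, 3743 to 5408 and 4246 to 5724 features). Values near 0 changed sign, at 0 h INHBA (-0.043 to 0.0064), TGFBR1 (-0.068 to 0.10) and TGFBR3 (-0.11 to 0.029), at 6 h SMAD7 (-0.060 to 0.26), at 24 h TGFB1 (-0.0097 to 0.16) and TGFBR3 (-0.080 to 0.0040), and from 6 to 24 h TGFBR3 (-0.077 to 0.0071 in WT and -0.048 to 0.026 in ΔCRE cells). The causes were not tested.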
